A study of Mus musculus with 6 samples.

Results

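The genes described here are the chaperones, folding enzymes, stress sensors and degradation factors of the endoplasmic reticulum (ER), 42 genes listed by symbol. All 42 were found among the 22000 gene symbols of the count table. A measured level decided which of them were compared: members were chosen by having at least 1 CPM (read counts scaled to the size of the library) in all 3 mice of either group, and 40 of the 42 passed, as did 13185 genes of the table. Each of the 40 reached this level in all mice of both groups, so none entered through one group alone. The mice were wild-type C57BL/6N males, and prefrontal cortex (PFC) was taken at 9 weeks of age. The 3 mice with early life stress (ELS) had been housed alone from weaning, and the 3 control mice had been kept in group cages from the same age. The labels name no transgene or drug in either group. Isolated mice also lived under a filter cap, so isolation and its caging cannot be told apart. RNA-seq gave 1 library per mouse, and the comparison asks how isolation relates to the transcripts of the PFC.

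The ER folds secreted and membrane proteins, in neurons among them receptors, channels and neuropeptides. When unfolded proteins build up, BiP (the product of Hspa5) leaves the sensors Ire1 (Ern1), Atf6 and Perk (Eif2ak3), and each starts a branch of the unfolded protein response (UPR). Ire1 splices Xbp1 mRNA into the form that encodes an active transcription factor, cleaved Atf6 and spliced Xbp1 raise chaperone and degradation genes, and Perk phosphorylates eIF2alpha, which lowers translation in general while Atf4 is translated and turns on genes such as Ddit3 (CHOP).

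Total counts per mouse ran from 28405795 to 35241743, and all 3 ELS libraries were deeper than the 3 control libraries. The defining markers of cortical excitatory neurons were all found, with 8 of 8 past the 1 CPM rule and a summed level from 1965 to 2270 CPM in control mice and from 2000.4 to 2246 CPM in ELS mice. Markers of striatal projection neurons, a neighboring tissue, stood apart in 1 mouse of each group: 7 of 8 listed markers were in the table, and their sum was 467 CPM in control 3 and 443 CPM in ELS 1, against 243 to 316 CPM in the other mice. Oligodendrocyte markers (8 of 8) were also highest in these mice, at 8211 and 7293 CPM against 6251 to 6879 CPM. So were blood markers (5 of 6 in the table), at 85.2 and 79.7 CPM against 51.0 to 64.4 CPM, while the cortical excitatory sum was lowest in these mice. Endothelial markers summed to 226 to 259 CPM in control mice and 231 to 277 CPM in ELS mice, and 1 of 8, Cldn5, had an unadjusted p under 0.05, with a log2 fold change of 0.31 (edgeR adjusted p = 0.9702). Of the neuron, astrocyte and microglia markers, 0 had an unadjusted p under 0.05, and the summed levels of each list overlapped between the groups. The groups did not overlap for the microglia marker Cx3cr1 (67.5 to 72.4 CPM in ELS mice, 60.6 to 67.4 in control mice). Nor did they for the astrocyte marker Aldh1l1 (68.6 to 74.0 CPM in ELS mice, 76.7 to 79.9 in control mice). By staining, the paper counted slightly fewer neurons and slightly more microglia in the PFC of ELS mice. The part of these cell types in the values of the members was not tested, apart from fits with a striatal score or without a mouse. Of 8 choroid plexus markers, 1 passed the rule, with sums from 3.04 to 5.16 CPM. In bulk tissue, fewer cells of a type and less RNA per cell cannot be told apart.

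The sequences that tie several members together lie in their promoters. The ER stress element, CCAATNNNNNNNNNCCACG, is the site known for Atf6 and Xbp1 together with the CCAAT-binding factor NF-Y, and it was searched on both strands from 250 bases before to 50 bases after the RefSeq gene start (GRCm38.p6). Of the 42 members, 35 had such a window, and 10 of the 35 (28.6%) held the element, against 37 of 27025 genes (0.137%) and 0 of 92 other ER genes. Many listed members are textbook UPR targets, from which this element is known, so its share among them is a description. The 10 were Hspa5, Hsp90b1, Dnajc3, Creld2, Calr, Canx, Pdia6, Ero1lb, Syvn1 and Derl3. No window was matched for Hyou1, Sil1, Manf, Atf6, Ppp1r15b, Derl1 and Sec61a1. The following stretches show the element in members with an unadjusted p under 0.05 and in members without, and Herpud1 shows the shorter second form, ATTGGNCCACG. They read 5′ to 3′ on the gene's strand, with the letters of the element and its spacer in capitals.
Hspa5, chr2:34772020-34772048, plus strand: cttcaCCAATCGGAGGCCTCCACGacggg
Dnajc3, chr14:118937812-118937860, plus strand: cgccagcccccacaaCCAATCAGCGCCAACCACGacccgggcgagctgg
Creld2, chr15:88819505-88819553, plus strand: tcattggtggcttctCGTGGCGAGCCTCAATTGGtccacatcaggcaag
Calr, chr8:84847060-84847108, minus strand: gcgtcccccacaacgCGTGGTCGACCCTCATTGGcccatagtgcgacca
Canx, chr11:50325785-50325833, minus strand: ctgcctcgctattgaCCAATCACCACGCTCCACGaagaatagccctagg
Pdia6, chr12:17266476-17266524, plus strand: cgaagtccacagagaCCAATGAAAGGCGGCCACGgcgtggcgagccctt
Hsp90b1, chr10:86705518-86705566, minus strand: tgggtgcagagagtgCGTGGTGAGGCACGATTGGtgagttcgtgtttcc
Herpud1, chr8:94386362-94386402, plus strand: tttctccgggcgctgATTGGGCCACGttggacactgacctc
In Creld2, Calr and this site of Hsp90b1 the element runs opposite to the gene. The Hspa5 stretch lies before the RefSeq start but within the Hspa5 gene of GENCODE M21, which starts at 34771970. The second form, searched after values had been seen, was in the windows of Herpud1 and Dnajb11 (2 of 35, 5.71%), against 12 of all 27025 genes (0.0444%). The UPR element, TGACGTGG or TGACGTGA, was found in Hspa5 (1 of 35, 2.86%, against 1.22% of all genes and 6.52% of the 92 other ER genes). The amino acid response element, searched as TGATGNAAT, was in 0 of the 35 windows, against 1.08% of all genes and 3.26% of the other ER genes. A match of letters is a description of the window and not a measured site.

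**Figure D1:**
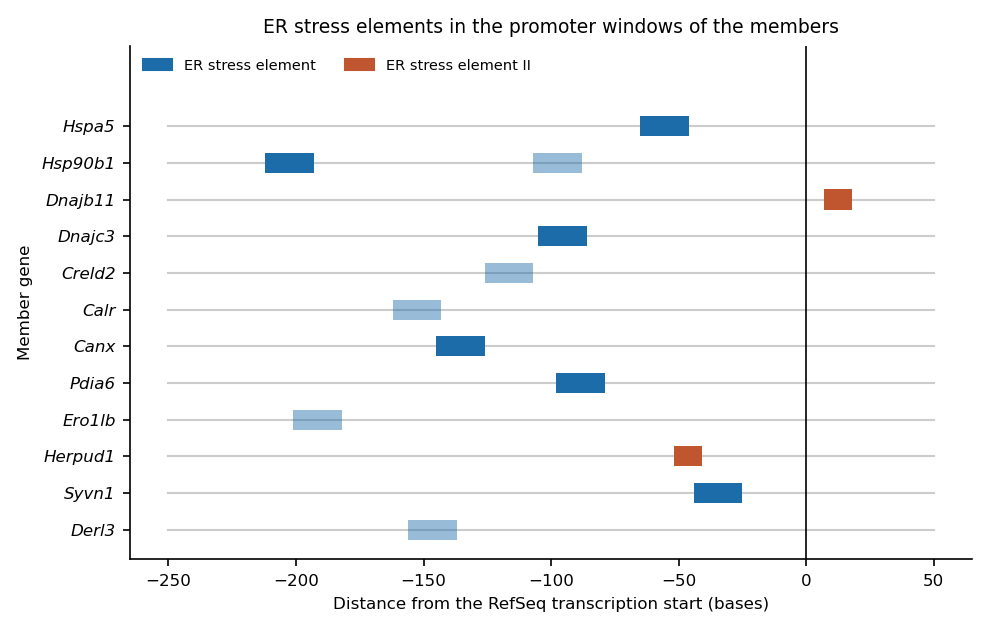
Position of each ER stress element (blue) and second-form element (orange) in the promoter windows of the 12 members that hold either, in bases from the RefSeq start, which is the black line at 0. Grey lines mark the windows, and paler bars run opposite to the gene. Most sites lie before the start, and Dnajb11 has its site after it.

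No member passed the thresholds for a differentially expressed gene (DEG), which were an absolute log2 fold change above 0.3 with a quasi-likelihood (edgeR) adjusted p under 0.05. This held for 0 of 40 members, against 2 of 13185 genes (0.0152%), which 0 of 40 does not depart from. The smallest adjusted p of a member was 0.660, for Pdia4. DESeq2 also called 0 members, with 7 at an unadjusted p under 0.05 and a smallest adjusted p of 0.218, and so did the edgeR likelihood ratio test, at 0.087. Below this threshold the members leaned to lower levels in ELS mice. At an unadjusted edgeR p under 0.05, 7 of 40 members (17.5%) were lower in ELS mice, against 2.34% of all genes, and 0 were higher, against 1.89%. Every ELS mouse lay below every control mouse for 8 of the 40 (20.0%), against 4.47% of all genes, and above for 0, against 3.81%. The log2 fold change was below 0 for 32 of 40 members (80.0%), against 52.5% of all genes. The median was -0.054 for the members and -0.0046 for all genes, and members ran from -0.49 to 0.15. With 1 mouse left out, the member median ran from -0.078 (without control 3) to -0.022 (without control 1). These counts describe members that were listed with earlier results of the same mice known.

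**Figure D2:**
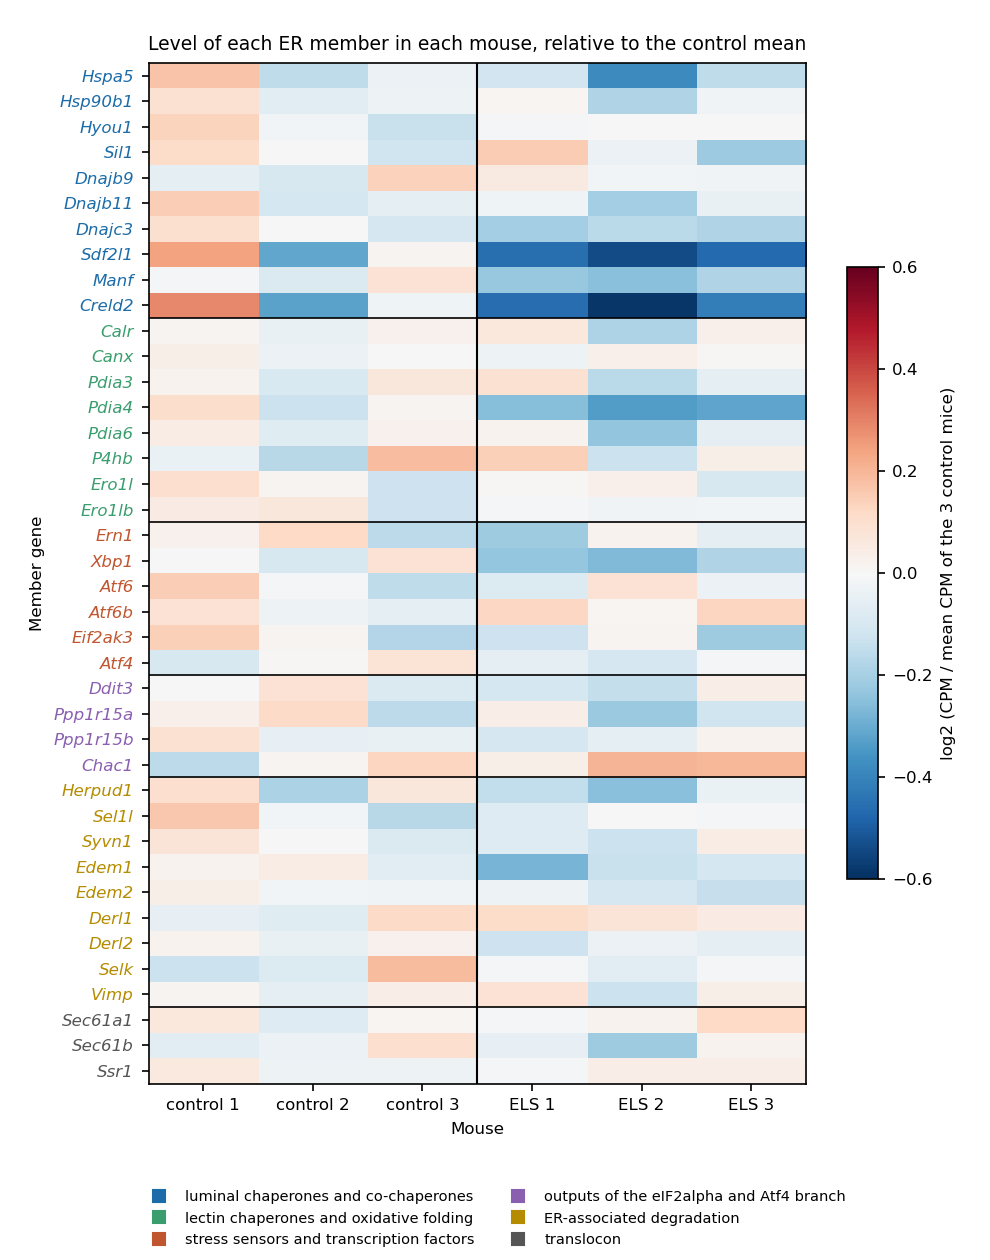
Level of each of the 40 members (rows, grouped by role) in each mouse (columns), as log2 of its TMM-scaled CPM over the control mean, where red is above and blue below that mean. Sdf2l1, Creld2 and Pdia4 are blue in all 3 ELS mice, and Hspa5 is deeper blue than Pdia4 in ELS 2. Control 1 is the highest mouse in 19 rows and ELS 2 the lowest in 18.

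The luminal chaperones and co-chaperones held the most members with an unadjusted p under 0.05. Of these 10 genes, 9 had a log2 fold change below 0 and 5 were lower at an unadjusted p under 0.05, against 52.5% and 2.34% of all genes. The 5 became 3 (Creld2, Manf and Sdf2l1) without control 1 or without ELS 3. The median of the role was -0.14. Hspa5 (chromosome 2, 34771970 to 34777547, plus strand) encodes BiP and stood at 400.5, 320.0 and 347 CPM in control mice 1 to 3 and at 329, 273 and 320.4 CPM in ELS mice 1 to 3. The groups overlapped, because control 2 lay below ELS 1 and ELS 3. The mean of Hspa5 was 13.6% lower in ELS mice, a log2 fold change of -0.21 (standard error 0.0929, edgeR adjusted p = 1). This fold change was -0.12 without control 1 and -0.14 without ELS 2. Hsp90b1, the ER member of the Hsp90 family, had 398, 357 and 366 CPM in control mice and 377, 330.0 and 368 CPM in ELS mice. Its fold change of -0.06 (95% interval -0.22 to 0.10) was within the spread between mice.

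Sdf2l1 and Creld2 had the lowest fold changes of the 40 tested members. Sdf2l1 (chromosome 16, 17130138 to 17132383, minus strand) works in chaperone complexes with BiP, and its level was 16.9, 11.5 and 14.4 CPM in control mice and 10.4, 9.81 and 10.3 CPM in ELS mice. Creld2 (chromosome 15, 88819646 to 88826683, plus strand), an ER-stress-induced protein with disulfide isomerase activity, had 16.6, 10.9 and 13.4 CPM in control mice and 9.93, 9.10 and 10.2 CPM in ELS mice. For both genes all ELS mice lay below all control mice, the ELS mice were close together, and control 2 was the nearest control. The log2 fold change of Sdf2l1 was -0.49 (95% interval -0.77 to -0.21, edgeR adjusted p = 0.705), 28.6% lower. The log2 fold change of Creld2 was -0.49 (95% interval -0.79 to -0.18, edgeR adjusted p = 0.861), 28.5% lower, and it was -0.32 without control 1. Both were among the members that varied most within groups, with coefficients of variation of 13.6% and 15.5% against a member median of 6.51%.

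Manf and Dnajc3 had fold changes nearer to 0 and tighter groups, and neither passed the adjusted threshold. Manf (chromosome 9, 106838312 to 106891979, minus strand) is an ER-resident protein that binds BiP and is also secreted as a neurotrophic factor, and it had 56.1, 52.9 and 59.8 CPM in control mice and 48.1, 47.3 and 49.7 CPM in ELS mice. Its log2 fold change was -0.22 (95% interval -0.37 to -0.07, edgeR adjusted p = 0.949). Genes on the opposite strand overlap 8.85% of the Manf exons, and from 8.05% to 11.4% of those of Hsp90b1, Eif2ak3, Ppp1r15b and Sec61a1, and their reads can be told apart only if strand was used in the counting. Dnajc3 (chromosome 14, 118937976 to 118981697, plus strand), a J-domain co-chaperone of BiP that also inhibits Perk, had 85.1, 79.4 and 74.2 CPM in control mice and 69.1, 71.1 and 70.1 CPM in ELS mice. The groups did not overlap, and the log2 fold change was -0.18 (95% interval -0.33 to -0.03, edgeR adjusted p = 1). The other luminal members were Hyou1 and Sil1, which exchange the nucleotide of BiP, and the J-domain proteins Dnajb9 and Dnajb11. Their fold changes ran from -0.09 for Dnajb11 to 0.01 for Dnajb9, each within the spread between mice. Summed over the 10 genes, control mice had 1254, 1087 and 1135 CPM and ELS mice 1112, 997 and 1088 CPM, 8.05% lower in the mean, with control 2 below ELS 1 and ELS 3.

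**Figure D3:**
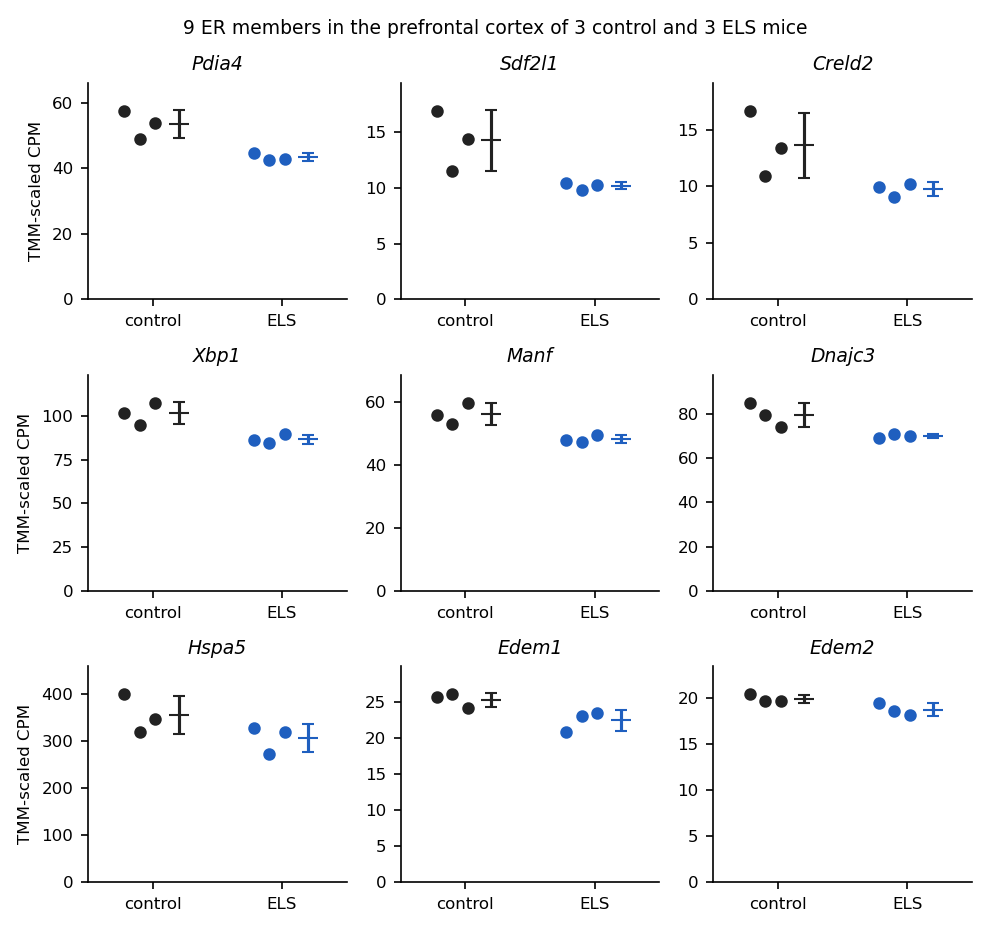
TMM-scaled CPM of 9 members in each control mouse (black) and ELS mouse (blue), from mouse 1 on the left to mouse 3 on the right, with the mean and SD of 3 mice beside the points and axes that start at 0. In all panels except Hspa5, every ELS mouse lies below every control mouse. The gap is narrow for Edem2, at 19.5 CPM in ELS 1 and 19.6 CPM in control 3.

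Among the lectin chaperones and oxidative folding enzymes, Pdia4 stood apart from the other 7 genes, which lay between -0.09 and 0.02. Pdia4 (chromosome 6, 47796141 to 47813430, minus strand), a protein disulfide isomerase also called ERp72, had 57.4, 48.9 and 54.0 CPM in control mice and 44.7, 42.4 and 42.9 CPM in ELS mice. The groups did not overlap. The control mean was 53.4 ± 4.27 CPM and the ELS mean 43.3 ± 1.24 CPM (SD, n = 3 each), 18.9% lower, a log2 fold change of -0.30 (95% interval -0.47 to -0.14). Pdia4 had the smallest p of the members, with an edgeR adjusted p of 0.660. Calr, the soluble lectin chaperone calreticulin, had 434, 417 and 437 CPM in control mice and 448, 377 and 438 CPM in ELS mice. Here ELS 2 was the lowest mouse and ELS 1 the highest, and the fold change was -0.03 (95% interval -0.19 to 0.13). Its membrane-bound partner calnexin, Canx, had the narrowest interval, -0.13 to 0.13 around 0.00. The isomerases Pdia3, Pdia6 and P4hb and the oxidases that recharge them, Ero1l and Ero1lb, lay between -0.09 and 0.02. Measured per kilobase of merged exons, Calr (148 CPM per kb, mean of both groups), Canx (99.0), Hsp90b1 (90.8) and Pdia3 (83.4) had the highest levels of the members, and Hspa5 followed at 78.5. The other 6 members with an unadjusted p under 0.05 lay further down this scale, with Xbp1 at 29.0, Pdia4 at 20.2, Manf at 14.8, Dnajc3 at 14.6, Sdf2l1 at 11.02 and Creld2 at 8.56 CPM per kb.

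None of the 6 stress sensors and transcription factors passed the adjusted threshold. Xbp1 was the 1 of the 6 with an unadjusted p under 0.05, where 2.34% of all genes were lower at this p. Xbp1 (chromosome 11, 5520659 to 5525893, plus strand) had 101.8, 95.02 and 107.6 CPM in control mice and 86.3, 84.5 and 89.4 CPM in ELS mice. Every ELS mouse lay below every control mouse, as for 4.47% of all genes. The log2 fold change of Xbp1 was -0.23 (95% interval -0.38 to -0.08, edgeR adjusted p = 0.907), 14.5% lower. Counts per gene join the spliced and unspliced forms of Xbp1, so splicing by Ire1 is not seen in them. Ern1, which encodes Ire1, was the lowest of the tested members per kilobase (1.17 CPM per kb) and had 9.97, 10.7 and 8.80 CPM in control mice and 8.46, 9.95 and 9.43 CPM in ELS mice. Atf6 had 118, 105.8 and 95.9 CPM in control mice and 100.8, 113 and 104 CPM in ELS mice. Eif2ak3 had 31.0, 28.4 and 24.8 CPM in control mice and 25.8, 28.4 and 24.3 CPM in ELS mice. In each of these 3 genes the groups overlapped, with log2 fold changes of -0.08 (95% interval -0.33 to 0.17) for Ern1, -0.0081 (-0.19 to 0.17) for Atf6 and -0.10 (-0.31 to 0.11) for Eif2ak3. The value of Atf6 turned above 0 with upper-quartile scaling. That of Eif2ak3 was -0.026 without control 1 and -0.19 without control 3, where Eif2ak3 also had an unadjusted p under 0.05. Atf4, the transcription factor of the Perk branch, had 101.3, 108.7 and 114.7 CPM in control mice and 104, 100.9 and 107.5 CPM in ELS mice, a fold change of -0.06 (95% interval -0.20 to 0.09). Atf6b, the relative of Atf6, was the member of this role with the highest fold change, at 0.09 (95% interval -0.07 to 0.24). Atf4 is regulated by translation, which these counts do not measure.

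**Figure D4:**
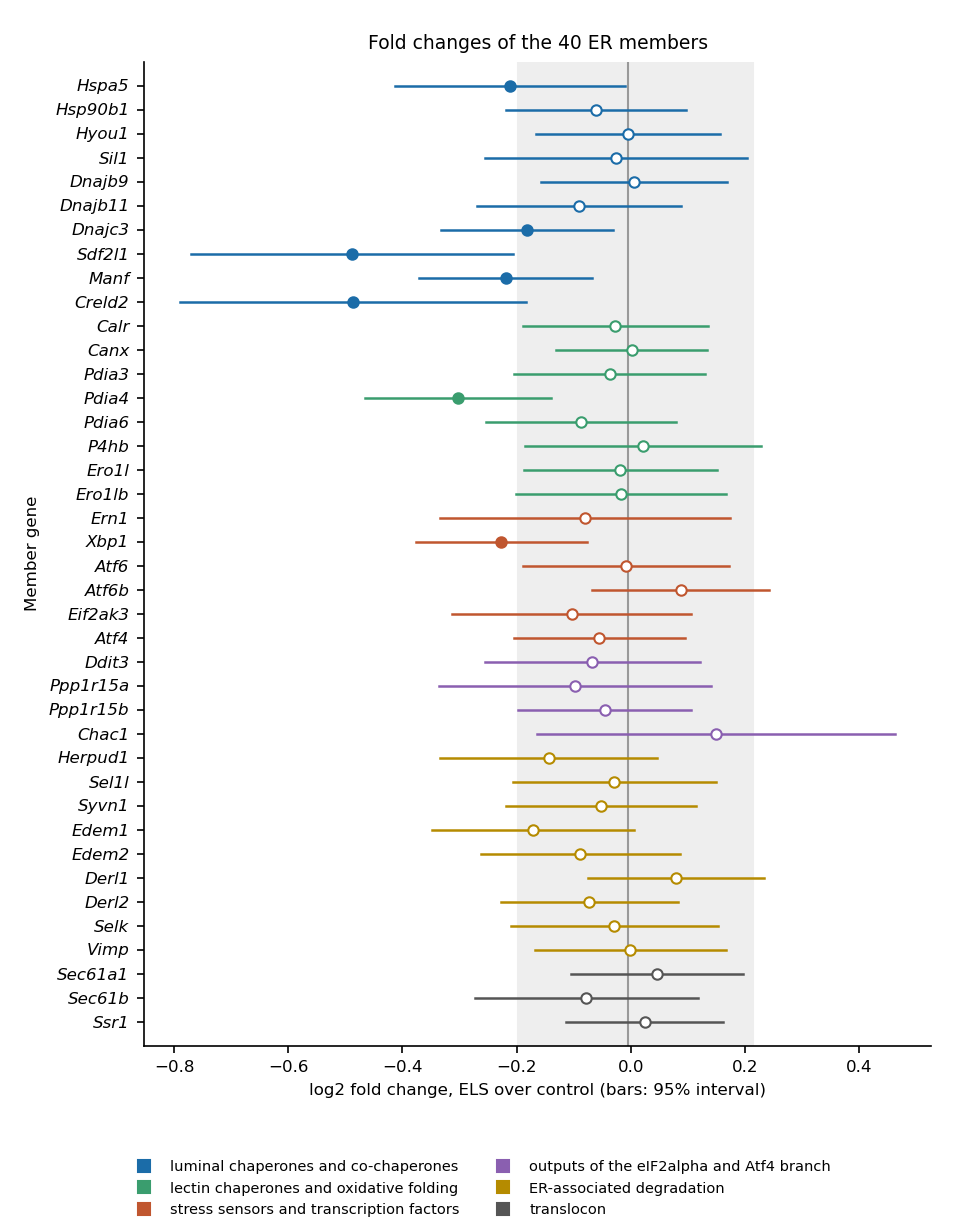
Log2 fold change of ELS over control for each of the 40 members, colored by role, with bars for the 95% interval and filled points for an unadjusted edgeR p under 0.05. The grey line is the median of all 13185 genes and the grey band their 5th to 95th percentiles, -0.20 to 0.21. All 7 filled points lie below 0, 6 of them in folding genes and 1 in Xbp1.

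Of the 4 tested genes that follow eIF2alpha phosphorylation and Atf4, 0 had an unadjusted p under 0.05. This does not depart from the 2.34% lower and 1.89% higher of all genes. Ddit3, the transcription factor CHOP, had 21.3, 22.7 and 20.2 CPM in control mice and 19.9, 19.4 and 22.0 CPM in ELS mice, a log2 fold change of -0.07 (95% interval -0.26 to 0.12). Ppp1r15a and Ppp1r15b, the stress-induced and constitutive regulatory subunits of the eIF2alpha phosphatase, were at -0.10 and -0.05. Chac1, a glutathione-degrading enzyme and Atf4 target, had the lowest CPM of the 40 tested members and the highest fold change among them. Its level was 4.35, 4.92 and 5.31 CPM in control mice and 4.98, 5.61 and 5.58 CPM in ELS mice, with overlap, a fold change of 0.15 (95% interval -0.16 to 0.46), which was 0.075 without control 1. Below the rule in every mouse, Trib3, a pseudokinase and target of Atf4 and CHOP, had 0.195, 0.248 and 0.210 CPM in control mice and 0.570, 0.343 and 0.248 CPM in ELS mice, from 6 to 19 reads. In a fit of all genes with at least 1 read, the log2 fold change of Trib3 was 0.83 (standard error 0.583, edgeR adjusted p = 1).

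ER-associated degradation (ERAD) returns misfolded proteins to the cytosol. Of its 9 tested members, 8 had a fold change below 0 (88.9%), against 52.5% of all genes. An unadjusted p under 0.05 was reached by 0 of the 9, which does not depart from the 2.34% lower and 1.89% higher of all genes. For 2 of the 9, Edem1 and Edem2, which trim mannose from misfolded glycoproteins, every ELS mouse lay below every control mouse, against 4.47% of all genes. Edem1 had 25.6, 26.1 and 24.2 CPM in control mice and 20.8, 23.0 and 23.5 CPM in ELS mice, 11.2% lower, a log2 fold change of -0.17 (95% interval -0.35 to 0.00, edgeR adjusted p = 1). Edem2 had 20.4, 19.7 and 19.6 CPM in control mice and 19.5, 18.6 and 18.1 CPM in ELS mice. Its gap between the groups was small, and the fold change was -0.09 (95% interval -0.26 to 0.09, edgeR adjusted p = 1). Herpud1, a membrane protein that helps assemble the degradation complex, had 65.4, 53.5 and 63.8 CPM in control mice and 55.0, 51.2 and 59.3 CPM in ELS mice, which overlapped, with a fold change of -0.14 (95% interval -0.33 to 0.05). This value was -0.089 without control 1, -0.095 without ELS 2 and -0.23 without control 2, and Herpud1 had an unadjusted p under 0.05 without control 2 and with a striatal marker score as a covariate, as Edem1 had without control 3. The ubiquitin ligase Syvn1 (Hrd1), its partner Sel1l, the derlins Derl1 and Derl2 and the selenoproteins Selk and Vimp lay between -0.07 and 0.08. Annotated pseudogenes are named for Selk and Calr, so the counts of both are uncertain to that degree. Derl3, just outside the 1 CPM rule, had 1.33, 0.885 and 0.978 CPM in control mice and 0.660, 0.715 and 0.806 CPM in ELS mice, from 22 to 41 reads. In a fit of all genes with at least 1 read, its log2 fold change was -0.55 (standard error 0.335, edgeR adjusted p = 1).

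The translocon, which moves new proteins into the ER, had fold changes on both sides of 0. Sec61a1, its channel subunit, had 64.5, 58.5 and 62.4 CPM in control mice and 61.5, 62.8 and 67.0 CPM in ELS mice, a log2 fold change of 0.05 (95% interval -0.11 to 0.20). Sec61b, a small subunit of the channel, had 21.2, 21.7 and 23.8 CPM in control mice and 21.4, 19.1 and 22.6 CPM in ELS mice, a fold change of -0.08. Ssr1, a subunit of the translocon-associated protein complex, was at 0.02. The groups overlapped for all 3 genes.

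Members with and without the ER stress element were both found among those with an unadjusted p under 0.05, as 2.34% of all genes were on the lower side. Among the 9 tested members with the element, 3 had an unadjusted p under 0.05 (Hspa5, Dnajc3 and Creld2), 8 had a log2 fold change below 0, and the median was -0.061. Hsp90b1, Calr, Canx, Pdia6, Ero1lb and Syvn1 also carry the element, and their log2 fold changes ran from -0.087 for Pdia6 to 0.0013 for Canx. Among the 24 tested members with a window and no match, 19 had a log2 fold change below 0 and 3 had an unadjusted p under 0.05 (Sdf2l1, Pdia4 and Xbp1), with a median of -0.070. Of 8 other tested genes with the element, 4 had a log2 fold change below 0 and 1 of them an unadjusted p under 0.05, with a median of -0.021. These medians are descriptions, and their difference was not tested.

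Over further listed genes of the ER and the UPR, fold changes lay on both sides of 0. These 113 genes, called other ER genes here, include Atf4 targets and regulators whose proteins act outside the ER. Of the 113, 110 passed the 1 CPM rule. Of these, 46 had a log2 fold change below 0 and 64 above, with a median of 0.02, and 0 were called, in edgeR's quasi-likelihood test or in DESeq2. An unadjusted edgeR p under 0.05 was reached by 2 that were lower and 1 that was higher, 1.82% and 0.909% of the 110, which is not above the 2.34% and 1.89% of all genes. Groups did not overlap for 5 lower and 5 higher genes, 4.55% each, near the 4.47% and 3.81% of all genes. The genes are named by the rank of their p and not as differences. The 3 were Gpt2, an alanine aminotransferase and Atf4 target (log2 fold change -0.25), Eif2ak4, the eIF2alpha kinase that senses amino acids (-0.22), and Slc7a11, the cystine transporter (0.21). Gpt2 had 73.3, 72.4 and 77.1 CPM in control mice and 64.1, 61.8 and 61.1 CPM in ELS mice, with an adjusted p of 0.705. The next in order of p were Bbc3 (0.39), Srp54a (0.36), Cdnf (0.47), Dnajc1 (-0.16), Prkcsh (-0.13), Creb3l2 (-0.19) and Spcs3 (0.11), each given as a log2 fold change. Cdnf, the relative of Manf, was low and higher in ELS mice, at 1.46, 1.27 and 1.05 CPM in control mice and 1.71, 1.54 and 2.02 CPM in ELS mice. Manf and Cdnf thus had fold changes of opposite sign, and neither passed the adjusted threshold.

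**Figure D5:**
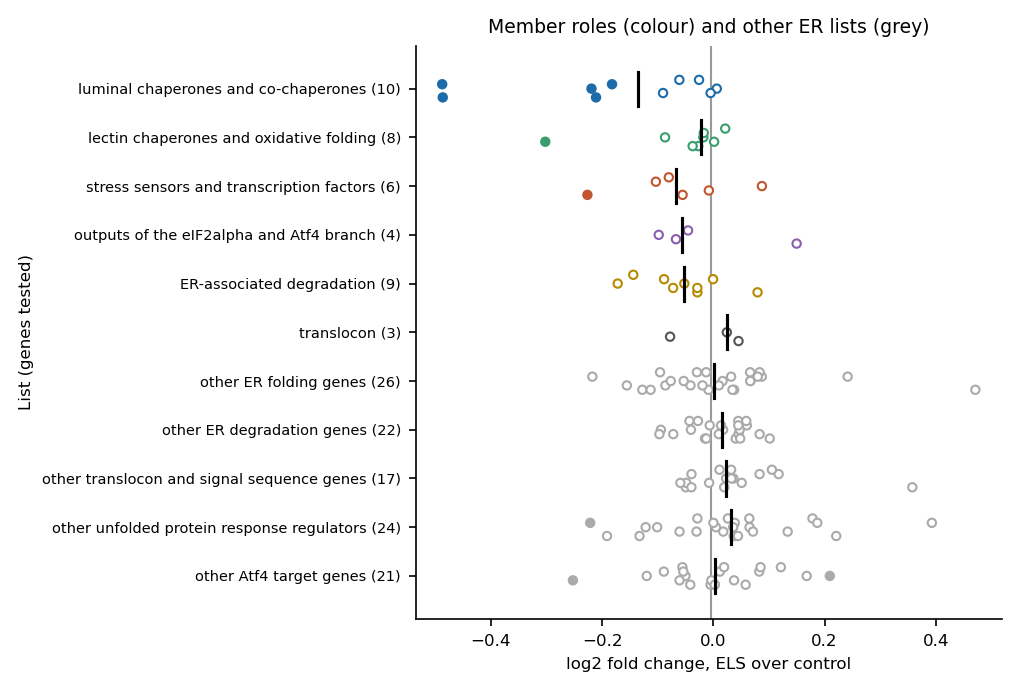
Log2 fold change of each tested gene in the 6 member roles (colored) and in 5 further lists of ER, UPR and Atf4 target genes (grey). Numbers of genes are in parentheses, black bars are medians, and filled points have an unadjusted edgeR p under 0.05. The grey line is the median of all 13185 genes. The luminal chaperones have the lowest median, -0.14, and the 5 further lists have medians from 0.00 to 0.03.

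The members did not vary evenly over the mice. Control 1 was the highest of the 6 mice for 19 of 40 members (47.5%), against 17.2% of all genes, and ELS 2 was the lowest for 18 (45.0%), against 12.9% of all genes. Summed over the 40 members, control mice had 4243, 3907 and 4088 CPM and ELS mice 4014, 3762 and 3988 CPM, 3.87% lower in the mean. The sum of control 2 was below those of ELS 1 and ELS 3. Without control 1, 5 members had an unadjusted edgeR p under 0.05 and were lower, Pdia4, Sdf2l1, Creld2, Manf and Xbp1, and Hspa5 and Dnajc3 did not reach it, against 1.97% of all genes. The same 5 remained without ELS 3, against 1.49% of all genes. Those 5 genes reached it in all 15 alternative fits, Dnajc3 in 12 and Hspa5 in 11. These fits reuse the 6 mice in which the genes were picked at this p, so they are not independent support. Without ELS 2 the count was 6 of 40, against 2.23% of all genes. For the mice with high striatal markers, the count was 9 without control 3, where the share of all genes lower at this p was 7.24%, and 6 without ELS 1, where it was 1.74%. With a striatal marker score as a covariate, added after the data had been seen, 8 members were lower at this p, against 3.72% of all genes. In this fit Pdia4 was called, with a log2 fold change of -0.31 and an adjusted p of 0.0474 in edgeR's quasi-likelihood test. That is 1 of 40 members, where 31 of 13185 genes were called, against 2 in the main fit.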

How the data were processed

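RNA was extracted from PFC of 3 control and 3 ELS male mice, and poly(A) libraries were sequenced as paired ends. The authors trimmed reads with Trimmomatic and aligned them to mm10. The processing notes of the submitters name STAR 2.7.1a and HTSeq 0.9.1. The authors deposited raw counts of uniquely mapped reads per gene symbol, without normalization or pooling. The annotation release and strand setting are not given in the sources used here. ELS columns are named there for social isolation and were matched by that term and number.

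The analysis used edgeR 4.0.16 in R 4.3.3 (TMM factors, quasi-likelihood test, condition as the only term, Benjamini-Hochberg adjustment over 13185 genes). Alternatives used DESeq2 1.42.0, limma 3.58.1 (voom), the likelihood ratio test, other normalizations and filters, a replicate block and each mouse left out. Unadjusted p-values are from edgeR. Mice of 1 group differed by more than sampling noise (chi-square of at least 6.70 per degree of freedom). Tests were checked on simulated counts with changes larger than that of any tested member, so the check does not cover changes of the members' size. Positions and exon lengths are from GENCODE M21 (GRCm38).

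Members and lists were chosen with earlier results of these data known. By rule, values per mouse are given for 12 key members, those with an unadjusted p under 0.05 or groups that do not overlap, the largest fold change of each role, and those at the edge of the 1 CPM rule. Of the other ER lists, the 10 smallest p are named. Protein sequences were not analysed here.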

Additional observations from a re-analysis of the deposited data

How the results depend on the processing

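Limits include 3 mice per group, 1 library per mouse, groups that differ in depth, and high striatal markers in 1 mouse of each group. No member was called under the other tests, scalings and filters, the replicate block or with a mouse left out, and Pdia4 was called with the striatal covariate, which made 1 member called. Members with an unadjusted p under 0.05 that were lower numbered 6 or 7 under other tests, scalings, filters and the replicate block, and 5 to 9 with a mouse left out. Members higher at this p numbered 0 to 1 with a mouse left out, and the 1 was Derl1 without control 3. The median log2 fold change of the members stayed below 0, from -0.08 to -0.02 with a mouse left out.

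Over all genes, 2 were called, against 18 with DESeq2, 28 with the likelihood ratio test, 4 when every gene with a read was kept, 7 with the replicate block, 31 with the striatal covariate, and 1 to 29 with a mouse left out, the 29 without control 3. Replicate numbers name different mice, and the deviations of same-numbered mice correlated at -0.16, 0.26 and -0.04. With 3 mice per group, these values cannot decide whether the numbers pair the mice. The paper states that control and ELS mice were taken from litters of the same mother, and litters are not named in the labels. The block left 7 members lower at an unadjusted p under 0.05 and 0 called. The fold change of Atf6 turned above 0 with upper-quartile factors (0.0026) and the striatal covariate (0.037), and ran from -0.081 to 0.073 with a mouse left out. That of Calr ran from -0.076 to 0.044 with a mouse left out, above 0 without ELS 2. For both genes the cause was not tested. Over all alternatives, values near 0 moved by more than 1.5 times for Hsp90b1 (-0.10 to -0.0078), Ern1 (-0.15 to -0.017), Atf4 (-0.10 to -0.013), Ddit3 (-0.12 to -0.023), Sec61a1 (0.0076 to 0.077) and Sec61b (-0.13 to -0.016), with no change of sign.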
